A study of Homo sapiens with 3 samples.

Results

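LARP1, TUB, TMOD1 and SMYD3 are 4 of the 13356 gene IDs under which RNA crosslinked to CSTF2tau was listed, and they were chosen by their reads in the last 10% of the region that the peaks cover, which outnumbered those in its first 10%. Members were found as peaks whose name starts with ENSG00000155506 (LARP1), ENSG00000166402 (TUB), ENSG00000136842 (TMOD1) or ENSG00000185420 (SMYD3), and all 4 had peaks in every replicate. They held 772 of 202310 listed peaks and 5743 of 1232277 reads, or 0.466% of the reads. The material was BE(2)-C, an established human neuroblastoma line of WT genotype, in 1 group of 3 biological replicates with no treatment, time course or control library. RNA was bound to protein by ultraviolet light in living cells, partly digested, recovered with the anti-CSTF2tau antibody A301-486A and sequenced by the sCLIP protocol. Gene IDs are not paired with symbols in the files, so marker genes of neuroblastoma cells were not analysed here.

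CSTF2tau is a paralog of CSTF2, and either protein can serve as the part of the cleavage stimulation factor that touches RNA. The factor recognises U-rich and GU-rich RNA just downstream of the position where a pre-mRNA is cut and polyadenylated, so recovery near transcript 3′ ends is what the protein is best known for. The 4 genes have unrelated products. LARP1 is an RNA-binding protein that controls translation of mRNAs with a terminal oligopyrimidine tract, and TUB is the tubby protein, which binds membrane phosphoinositides. TMOD1 caps the pointed ends of actin filaments, and SMYD3 is a lysine methyltransferase.

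Each peak has a p-value by the authors and a name that ends in a whole number of at least 3. That number was taken here as the peak's reads, which no source states. The lists held 736059, 108434 and 387784 reads in replicates 1, 2 and 3, so replicate 2 was the smallest, and these totals cover listed peaks only. A listed span runs from the first to the last peak of a gene ID over all replicates, and a locus is a set of peaks that overlap by at least 1 nt in any replicate. Positions are hg19, counted from 1. The end of a span is not an annotated transcript end, because no hg19 annotation was used here. The minus strand, on which only SMYD3 lies, took 48.8%, 50.6% and 63.2% of nuclear reads in replicates 1, 2 and 3. No separate cultures are named for the replicates, so their spread may be partly technical.

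The genes were listed at different levels, and TMOD1 varied most between replicates. LARP1 had 758, 140 and 179 reads in replicates 1, 2 and 3, which is 0.103%, 0.129% and 0.0462% of each list. TUB was the lowest, with 301, 84 and 95 reads and a mean of 0.0476% ± 0.0271 of the list (SD, n = 3). TMOD1 had 395, 484 and 245 reads, which is 0.0537%, 0.446% and 0.0632% of the lists, so that replicate 2 stood far above the other replicates and the gene ranked 13 of 5173 gene IDs there. SMYD3 was the highest by mean, with 1813, 177 and 1072 reads and 0.229% ± 0.0586 of the list. A high share of TMOD1 in replicate 2 remained at 0.373% when its strongest end locus was left out, against 0.0526% and 0.0616% in replicates 1 and 3.

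SMYD3 had by far the longest span. LARP1 covered chr5:154114672-154197236 on the plus strand, or 82.6 kb, with 94 loci. TUB covered chr11:8046068-8127514 on the plus strand, or 81.4 kb, with 45 loci. TMOD1 covered chr9:100264904-100363785 on the plus strand, or 98.9 kb, with 104 loci. SMYD3 covered chr1:245912568-246670437 on the minus strand, or 758 kb, with 379 loci. No peak of these genes was listed a second time under another gene ID. Other gene IDs had 2 peaks of 5 reads inside these spans, 1 on the same strand in SMYD3 in replicate 1 and 1 on the opposite strand in TMOD1 in replicate 2.

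Summed reads in the last against the first 10% of the span chose the members, so these values are a description. LARP1 had 512 reads against 3, TUB 392 against 3, TMOD1 473 against 29 and SMYD3 567 against 60. All 4 were called at the 3′ end by an exact binomial test across gene IDs, as were 18.1% of the 6382 gene IDs tested, while 14.1% were called at the 5′ end. Nothing is read from that count, since the same contrast picked the genes. By that test they ranked 4, 8, 9 and 10 among gene IDs called at the 3′ end. SMYD3, at rank 10, was the lowest of the 4, and the gene ID just after it, at rank 11, had 407 reads against 13.

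As a share of the whole gene the 4 were far from equal. In TUB 79.7%, 100% and 71.6% of reads fell in the last 10% of the span in replicates 1, 2 and 3, with exact 95% intervals of 74.7 to 84.1%, 95.7 to 100% and 61.4 to 80.4%. LARP1 had 41.4% (37.9 to 45.0%), 78.6% (70.8 to 85.1%) and 49.2% (41.6 to 56.7%). Both genes were therefore highest in replicate 2, and in both the interval of replicate 2 lay apart from the others. TMOD1 was the most even, with 37.7% (32.9 to 42.7%), 45.5% (41.0 to 50.01%) and 42.4% (36.2 to 48.9%), and its intervals overlapped. SMYD3 had 17.4% (15.7 to 19.3%), 35.0% (28.0 to 42.5%) and 17.6% (15.4 to 20.05%), and the interval of replicate 2 again lay apart. The intervals cover counting error only and take reads as independent, although reads come in peaks. In LARP1 in replicate 2, 37 of the 140 reads lay in 1 peak. By peaks, LARP1 had 38 of 84, 12 of 18 and 8 of 27 in the last 10% in replicates 1, 2 and 3. TUB had 29 of 40, 13 of 13 and 9 of 16, and SMYD3 34 of 217, 9 of 30 and 32 of 184. No interval was computed on peaks, so the gap of replicate 2 is given for reads only.

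Among 2333 gene IDs with at least 5 loci, at least 100 reads and reads in every replicate, the median share in the last 10% was 16.5%. TUB, with a mean of 83.8% ± 14.6 (SD, n = 3), was among 10 gene IDs at that level or above, and LARP1, with 56.4% ± 19.6, among 153. TMOD1 averaged 41.9% ± 3.898, a level reached by 18.3% of them. SMYD3 averaged 23.4% ± 10.1, a level that 39.6% reached, and its shares of 17.4% and 17.6% in replicates 1 and 3 lay close to that median. Summed over all gene IDs with at least 5 loci, the last 10% held 15.6%, 26.2% and 13.9% of the reads in replicates 1, 2 and 3, so the high replicate 2 was shared with the rest of the table.

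**Figure D1:**
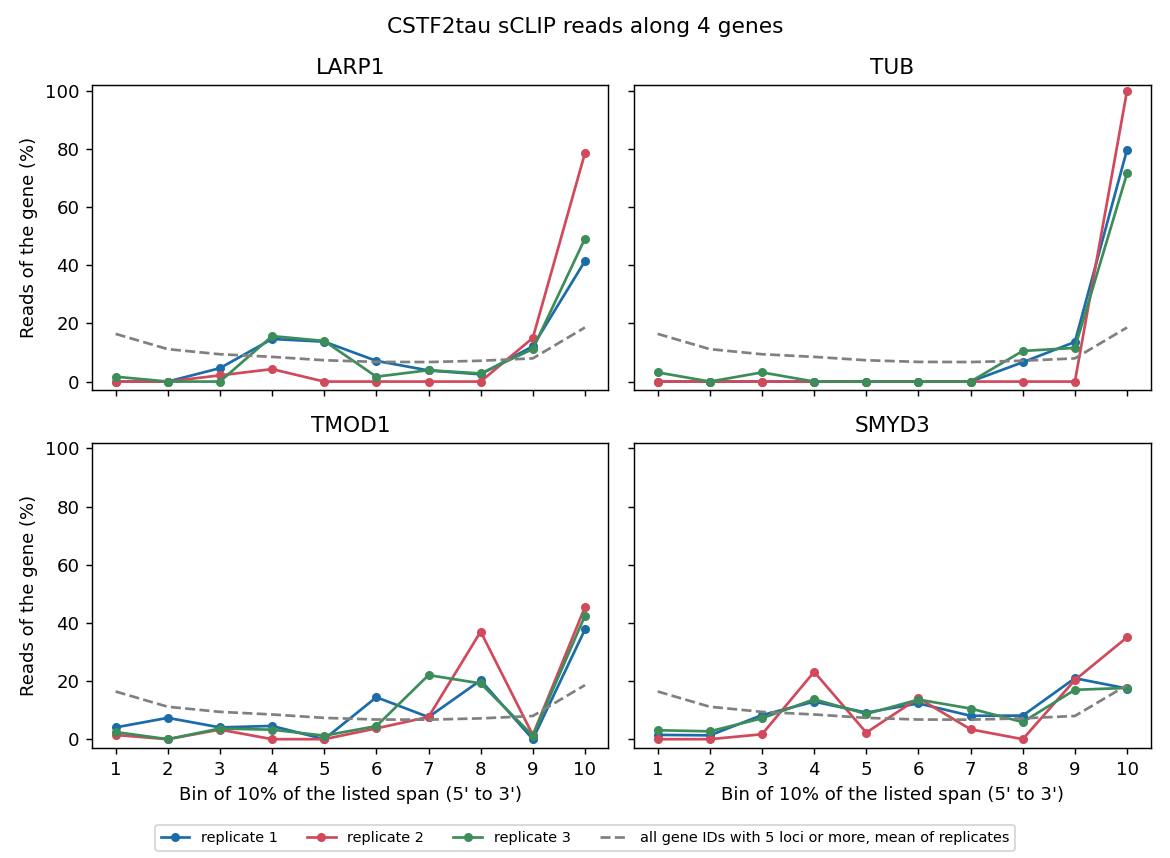
Share of each gene's reads (%, vertical axis) in the 10 bins of its listed span from 5′ to 3′ (horizontal axis), with a line per replicate and a dashed grey line for the mean over replicates of all gene IDs with at least 5 loci. LARP1 and TUB are highest in bin 10 in every replicate, TMOD1 has more reads in bin 8 than in any other inner bin in replicates 1 and 2, and SMYD3 in replicate 1 is higher in bin 9 (21.0%) than in bin 10 (17.4%).

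Outside the last 10%, the plot of reads in 10 bins from 5′ (bin 1) to 3′ (bin 10) separates the genes. TUB had no listed read in bins 4 to 7 in any replicate, and its 2 most upstream peaks were 3-read peaks of replicate 3. Those peaks set the length of its span. Without replicate 3 the TUB span shrank to 22.8 kb, and its last 10% then took in 38.2% of the TUB reads in replicate 1 and 41.7% in replicate 2. The share of TUB in the last 10% therefore rests on where its span begins, which is why distances in nucleotides from the end are given below.

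LARP1 had a further group of reads in bins 4 and 5. Bin 4 held 111, 6 and 28 reads in replicates 1, 2 and 3, and bin 5 held 104, 0 and 25. Both bins were well filled in replicates 1 and 3, while in replicate 2 nearly all reads lay in bins 9 and 10. The first peak of the LARP1 span was also a 3-read peak of replicate 3, and without that replicate the span was 62.1 kb and the last 10% held 38.8% and 78.6% in replicates 1 and 2.

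TMOD1 had a further group of reads in bin 8, with 80, 179 and 47 reads in replicates 1, 2 and 3, or 20.3%, 37.0% and 19.2% of the gene. In replicate 3 bin 7 was slightly higher, with 54 reads, against 30 and 37 in replicates 1 and 2. The reads of bin 8 lay in 20 loci over 8.25 kb at chr9:100334296-100342542, and 2 of the loci were listed in all 3 replicates. The stronger of them, chr9:100334345-100334556, had 26, 37 and 11 reads and ended 29.2 kb before the last listed base. The other, chr9:100342036-100342231, had 20, 7 and 10 reads. Between this group and the last 10% the signal almost vanished, with 0, 7 and 3 reads in bin 9 in replicates 1, 2 and 3. These inner loci were chosen after their values were seen.

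SMYD3 went against the description of a gene with its reads in the last 10%. Bin 9 held 380, 36 and 182 reads in replicates 1, 2 and 3, and bin 10 held 316, 62 and 189. In replicates 1 and 3 the fewest reads lay in bins 1 and 2, with 24 to 33 reads each, and every other bin held at least 63. The strongest SMYD3 locus outside the last 10%, chr1:245999279-245999565 in bin 9, had 44, 0 and 19 reads, more in sum than any SMYD3 locus in the last 10%.

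The next question was which peaks carry the bias. In LARP1, 5 of the 40 loci in the last 10% together held at least 50% of its reads, and the first 3 held 43.8%. The main locus was 180 nt long, at chr5:154194552-154194731, and ended 2505 nt before the last listed base. It had 82 reads in replicate 1, 13 in replicate 2 and 12 in replicate 3, and the lists mark a stretch of at most 4 nt inside each peak. Those of the strongest peak of each replicate lay within 32 nt of each other here, and the same peaks are compared at the other loci below. Next to it, chr5:154194765-154195051 had 45, 16 and 19 reads, and its marked stretches were spread over 175 nt. They gave 20.9% and 15.6% of the LARP1 reads in the last 10%, and both were listed in all replicates.

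The very end of LARP1 behaved differently. The last locus, chr5:154197158-154197236, was 79 nt long and had 37 reads in replicate 2 and no listed peak in replicates 1 and 3. Replicate 2 thus sets the end of the LARP1 span. At an equal share of the lists, 251 reads would stand there in replicate 1 and 132 in replicate 3. Such values, here and below, do not allow for the level of the whole gene, which differed between replicates. A locus 521 nt before the end, chr5:154196593-154196715, had 22 reads in replicate 3 and 5 in replicate 2, and none in replicate 1. At 919 nt before the end, chr5:154196202-154196317 had 17, 5 and 5 reads in replicates 1, 2 and 3, with marked stretches within 26 nt. Replicate 1 also had 18 pairs of peaks in the last 10% that directly adjoin, against 0 in both other replicates, and a narrower median peak of 41.5 nt, against 85.5 and 101.5 nt. Adjoining peaks do not overlap, so they counted as separate clusters, and as separate loci unless a peak of another replicate joined them. The LARP1 counts of loci, and its cluster share in replicate 1 given below, include these pieces.

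In TUB the reads of the last 10% were listed in many loci of similar size rather than in a main one. The strongest of the 28 loci in the last 10% held 11.5% of the reads there, and 7 loci were needed to reach 50%. Replicate 1 had 8 pairs of adjoining TUB peaks there, against 0 in both other replicates. The TUB counts of loci, the share of its strongest locus and its cluster share in replicate 1 include such pieces. The first, chr11:8124940-8125306, had 27, 3 and 15 reads in replicates 1, 2 and 3. The second, chr11:8122872-8123054, had 15, 5 and 13 reads, and its marked stretches lay within 41 nt of each other. The third, chr11:8124610-8124783, had 18 and 13 reads in replicates 1 and 2, with marked stretches 12 nt apart, and no listed peak in replicate 3.

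Another 3 TUB loci were listed in all replicates. At chr11:8125965-8126196 there were 18, 8 and 4 reads in replicates 1, 2 and 3, and at chr11:8124214-8124513 there were 13, 8 and 5. The locus that ends the span, chr11:8127249-8127514, had 16, 3 and 9 reads. Its marked stretches were 135 nt apart at most, with that of replicate 2 nearest to the end. The end of TUB thus held few reads in replicate 2, unlike that of the other 3 genes.

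In TMOD1, 5 of 31 loci in the last 10% held at least 50% of the reads, and the 2 strongest lay at opposite sides of it. The first, chr9:100363517-100363647, was 131 nt long and ended 138 nt before the last listed base. It had 79 reads in replicate 2, against 8 in replicate 1 and 6 in replicate 3, where an equal share of the lists would give 536 and 283 reads. Those values exceed the 395 and 245 reads of the whole gene there, because they carry over the high level of TMOD1 in replicate 2. As a share of the gene's own reads the locus held 2.03%, 16.3% and 2.45% in replicates 1, 2 and 3. All 3 replicates had overlapping peaks there, with marked stretches within 23 nt of each other. The second, chr9:100356038-100356276, ended 7509 nt before the end and had 25, 27 and 27 reads, similar counts from lists of unequal size.

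The remaining named TMOD1 loci were smaller. At chr9:100363212-100363356, replicates 1 and 2 had 17 and 14 reads and replicate 3 had none listed. At chr9:100357104-100357271, replicates 2 and 3 had 16 and 7 reads and replicate 1 had none listed. The third locus present in all replicates, chr9:100362164-100362294, had 9, 5 and 7 reads with marked stretches within 39 nt.

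In SMYD3 no small set of peaks carried the reads of the last 10%. Of 64 loci there, 16 were needed to reach 50% of the reads, the strongest held 6.35%, and none was listed in all 3 replicates. That strongest locus, chr1:245962041-245962279, had 30 reads in replicate 1 and 6 in replicate 3. The next, chr1:245920125-245920256, had 21 reads, all in replicate 1, and chr1:245958894-245959031 had 16 and 4 reads in replicates 1 and 3. At the end, chr1:245913219-245913303 had 9 and 10 reads in replicates 2 and 3, and their marked stretches were 3 nt apart. The last locus, chr1:245912568-245912674, had 18 reads in replicate 2 only, where 122 and 64.4 reads would stand in replicates 1 and 3 at an equal share of the lists.

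The SMYD3 peaks of the last 10% fell into 2 groups with an empty stretch between them. In the 17 kb nearest the end there were 114, 56 and 98 reads in replicates 1, 2 and 3, and between 17 and 33 kb from the end there was no listed peak in any replicate. Beyond 33 kb there were 202, 6 and 91 reads. Replicate 2 had 90.3% of its reads in the last 10% in the group at the end, against 36.1% in replicate 1 and 51.9% in replicate 3. The limits of the groups were set after the peaks had been seen.

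**Figure D2:**
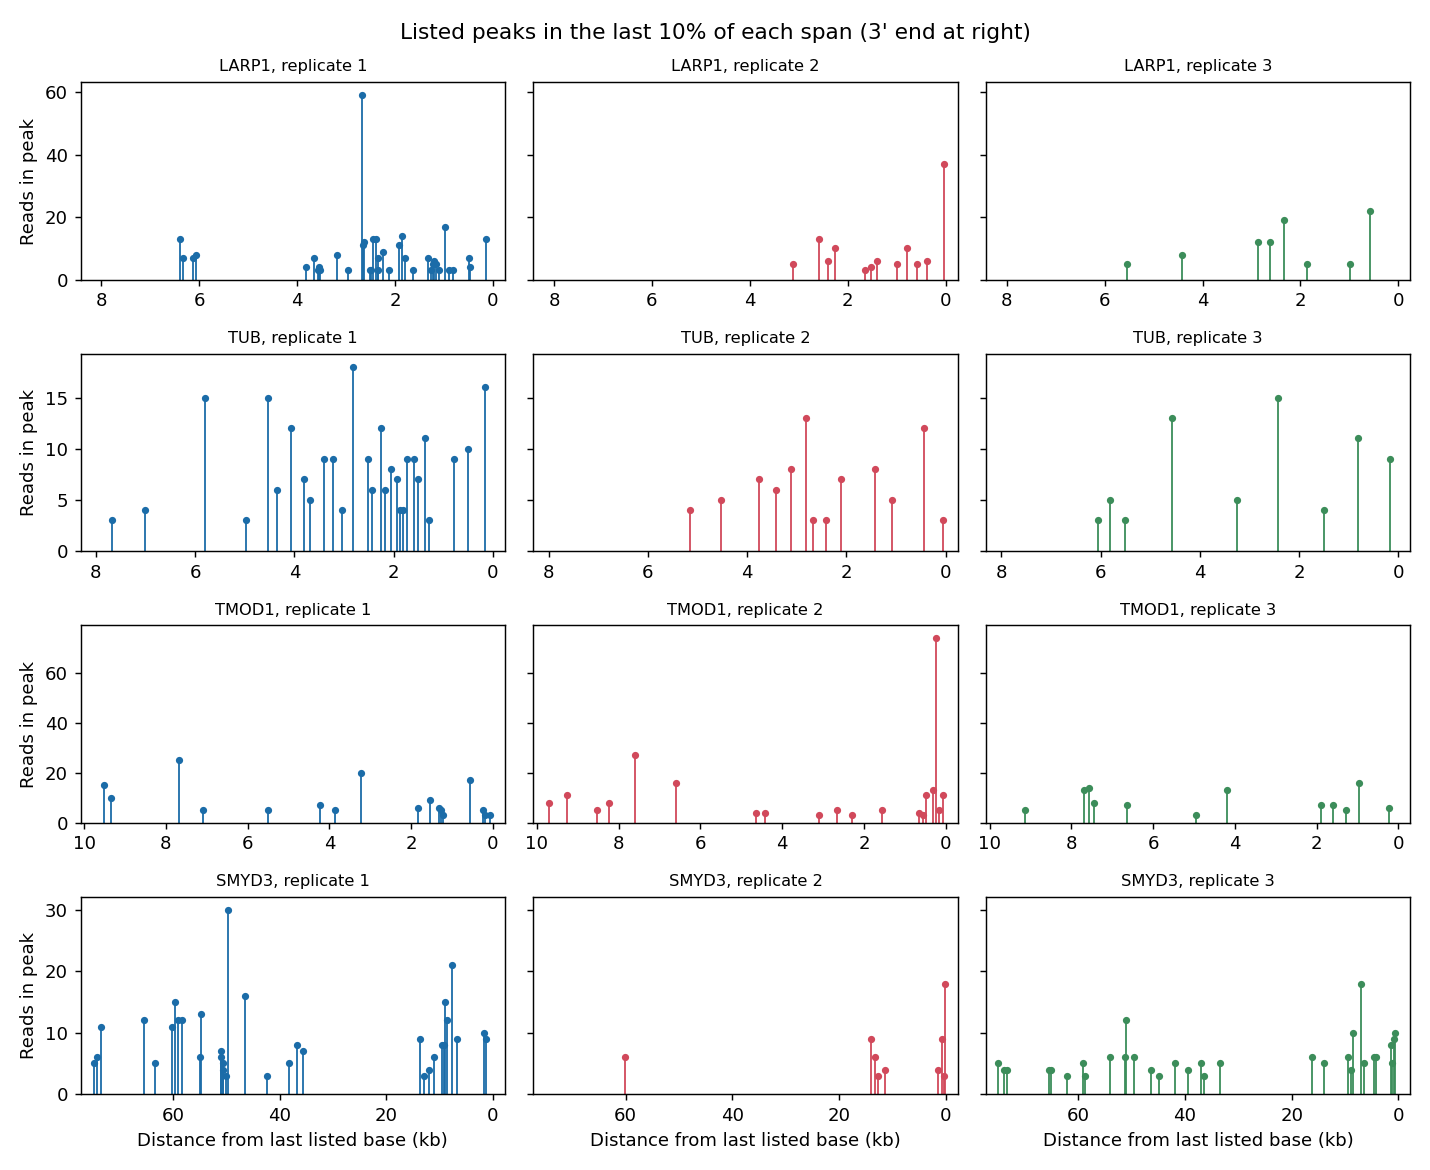
Each stem is a listed peak in the last 10% of the span, at the distance of its midpoint from the last listed base (kb, horizontal axis, 3′ end at right) with its reads (vertical axis, shared by the 3 replicates of a gene). Replicate 2 has its tallest stem close to the end in LARP1 (37 reads), TMOD1 (74 reads) and SMYD3 (18 reads), while the tallest TUB stems are 18, 13 and 15 reads in replicates 1, 2 and 3 and lie away from the end. The last listed base is set by a replicate 2 peak in each gene.

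Measured in nucleotides from the last listed base, LARP1, TMOD1 and SMYD3 had far more of their reads at the very end in replicate 2. That base was itself set by a replicate 2 peak in LARP1, TUB, TMOD1 and SMYD3. Reads of replicate 2 at the very end are therefore present by construction. Without replicate 2 the SMYD3 span was 757.21 kb, against 757.87 kb, so the other replicates had no peak within 250 nt of that end. Within 250 nt of the end LARP1 had 13, 37 and 0 reads in replicates 1, 2 and 3, or 1.72%, 26.4% and 0% of the gene. TMOD1 had 11, 90 and 6 reads there, or 2.78%, 18.6% and 2.45%. SMYD3 had 0, 18 and 0 reads, or 0%, 10.2% and 0%. TUB ran the other way, with 16, 3 and 9 reads, or 5.32%, 3.57% and 9.47%, and its exact intervals overlapped. Over all gene IDs with at least 5 loci the same window held 3.95%, 12.5% and 4.56% of the reads, so a higher share in replicate 2 was a feature of the whole list. Replicate 2 also had the fewest listed reads, and the part of this in the result was not tested.

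In a wider window of 5000 nt, LARP1 and TUB lay above the pooled share of all gene IDs in every replicate. TUB had 72.4%, 95.2% and 60% of its reads there in replicates 1, 2 and 3, and LARP1 had 36.8%, 78.6% and 46.4%. Over all gene IDs the values were 18.4%, 32.1% and 14.5%. TMOD1, with 22.5%, 29.96% and 23.3%, lay above them in replicates 1 and 3 and below in replicate 2, and SMYD3, with 1.05%, 19.2% and 4.10%, lay below them in each replicate. A window of fixed length covers a far smaller part of the 758 kb SMYD3 span than of shorter spans. The pooled share mixes spans of all lengths, so the low place of SMYD3 here is not separated from its span length. These windows lie within the region that chose the genes and are given without a test.

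**Figure D3:**
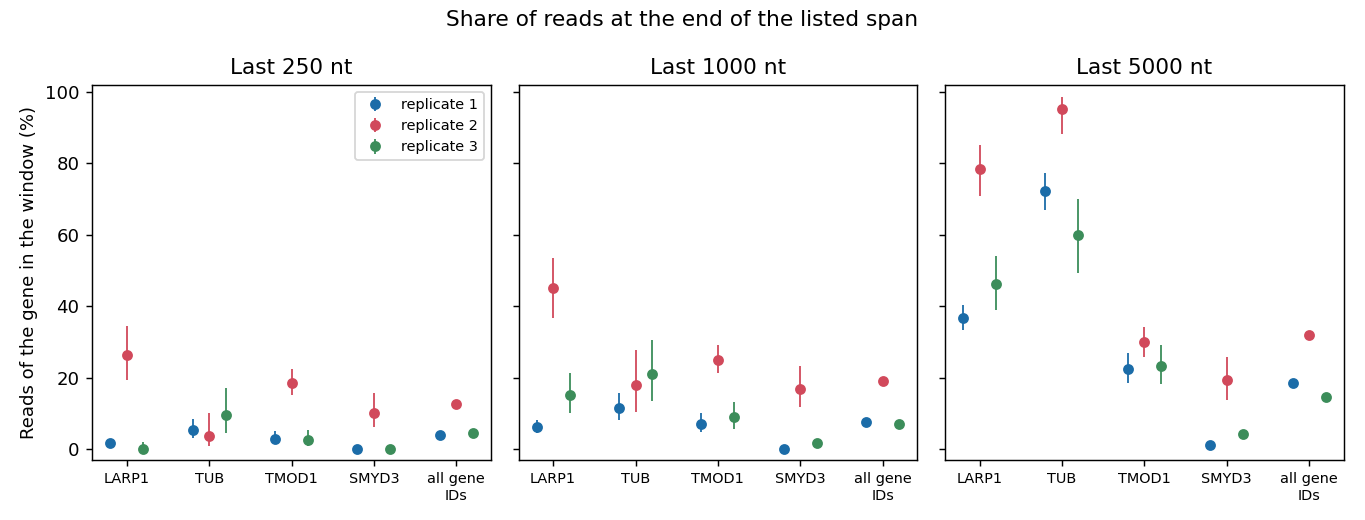
Share of each gene's reads (%, vertical axis) within 250, 1000 and 5000 nt of the last listed base, with a point per replicate and exact 95% intervals as bars; points for all gene IDs with at least 5 loci carry no interval. In the 250 nt panel replicate 2 is highest in LARP1 (26.4%), TMOD1 (18.6%) and SMYD3 (10.2%) but lowest in TUB (3.57%), and in the 5000 nt panel TUB is the highest gene in each replicate. The last listed base is set by a replicate 2 peak in each gene.

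Whether the replicates used the same positions was measured by overlap, which the choice of genes did not use directly. Of the loci in the last 10%, 12 of 28 in TUB, 9 of 31 in TMOD1, 8 of 40 in LARP1 and 11 of 64 in SMYD3 were listed in at least 2 replicates. Over all gene IDs with at least 5 loci the share was 11.3% in the last 10% and 8.45% in the rest of the span. In all 3 replicates there were 5 such loci in TUB, 3 in TMOD1, 3 in LARP1 and 0 in SMYD3, against 1.37% of loci in the last 10% in the whole table and 0.846% of the rest. Because the genes were chosen for many reads there, these counts are a description. By reads, the loci in at least 2 replicates held 79.1% of the reads in the last 10% of TUB, 65.5% of TMOD1, 57.0% of LARP1 and 34.7% of SMYD3.

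In the remaining parts of the spans, 1 of 17 loci in TUB, 13 of 73 in TMOD1, 15 of 54 in LARP1 and 35 of 315 in SMYD3 were listed in at least 2 replicates. Only 1 LARP1 locus there was listed in all 3, at chr5:154183094-154183304 in bin 9, with 36, 13 and 5 reads. SMYD3 had 2 of these. At chr1:246002384-246002499, which is 89.8 kb from the end and in bin 9, it had 9, 8 and 5 reads, and at chr1:246424621-246424817, which is 512 kb from the end, it had 15, 7 and 10. The positions that all replicates shared in SMYD3 were therefore outside its last 10%.

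Peaks were then merged into clusters within each replicate, and the share that overlapped a cluster of another replicate was set against the same share in the rest of the span. The last 10% was chosen for its many reads and holds peaks more densely, so these differences are a description. In TUB there were 3.56, 1.60 and 1.11 peaks per kb in the last 10% in replicates 1, 2 and 3, against 0.150, 0 and 0.0955 in the rest. In TMOD1 there were 1.72, 1.92 and 1.21, against 0.393, 0.416 and 0.258. LARP1 had 4.60, 1.45 and 0.969, against 0.619, 0.0807 and 0.256, and SMYD3 had 0.449, 0.119 and 0.422, against 0.268, 0.0308 and 0.223. The part of this density in the overlap was not tested. With 3 replicates the smallest p of the exact sign-flip permutation test is 0.25, and 0.5 in TUB, where 2 replicates have peaks in both regions, and nothing is read from it.

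In TUB 62.1%, 76.9% and 77.8% of clusters in the last 10% were shared in replicates 1, 2 and 3, against 9.09% and 14.3% of the rest in replicates 1 and 3. The mean difference was 58.2 percentage points ± 7.43 (SD, n = 2). It was 13.6 points when peak midpoints had to lie within 10 nt, -0.74 with the peaks of lower p-value and 8.54 without replicate 3, which sets the TUB span. Listed p-values fell as reads rose, with Spearman rho of -0.99, -0.97 and -0.96 in replicates 1, 2 and 3. The peak that begins the TUB span had 3 reads. Whether the filter by p-value also moved that span was not tested. In TMOD1 58.8%, 42.1% and 66.7% were shared, against 34.3%, 37.8% and 39.1% of the rest, a difference of 18.8 points ± 12.7 (SD, n = 3). It was 1.80 points with midpoints within 10 nt and 5.01 with an overlap of 50% of both clusters. Without replicates 1, 2 and 3 in turn it was 9.31, 35.6 and 6.92 points.

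In SMYD3 the shared clusters made up 23.5%, 44.4% and 31.3% of the last 10% and 20.8%, 19.0% and 22.4% of the rest, a difference of 12.3 points ± 11.7 (SD, n = 3). It was 5.93 points with midpoints within 10 nt, 18.7 with the peaks of lower p-value, -0.42 without replicate 2 and -0.94 without replicate 3. In LARP1 the last 10% had 34.2%, 66.7% and 62.5% and the rest 34.8%, 50% and 68.4%, a difference of 3.39 points ± 11.8 (SD, n = 3). Without replicates 1, 2 and 3 in turn it was 34.9, -11.3 and 13.9 points.

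Over all gene IDs with at least 5 loci, 19.0%, 35.8% and 22.5% of clusters in the last 10% were shared in replicates 1, 2 and 3, and 15.2%, 35.8% and 16.7% of the rest. Gene IDs with at least 8 clusters in the last 10%, as all 4 genes have, numbered 337, 57 and 96 in replicates 1, 2 and 3 and had median shares of 23.5%, 53.8% and 34.1% there. TUB and LARP1 lay above these medians in every replicate, TMOD1 in replicates 1 and 3, and SMYD3 in none.

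**Figure D4:**
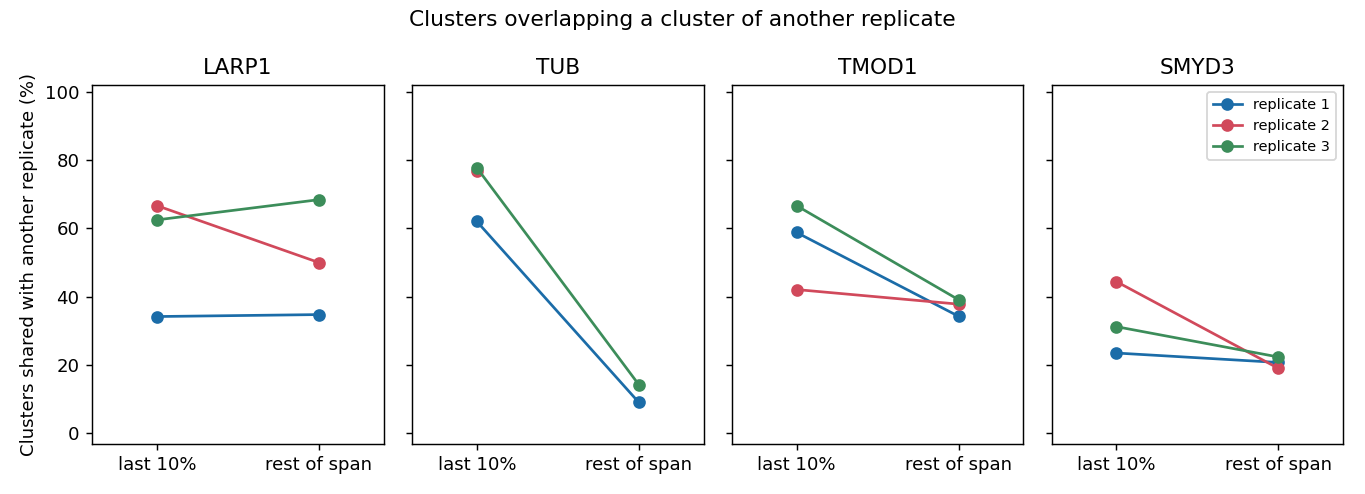
Share of a gene's clusters (%, vertical axis) that overlap a cluster of another replicate, in the last 10% and in the rest of the span, with a line per replicate. TUB is higher in the last 10% in replicates 1 and 3 and has no clusters in the rest in replicate 2, TMOD1 and SMYD3 are higher in the last 10% in all 3 replicates, and the LARP1 lines cross.

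Where peaks of different replicates overlapped, their marked stretches seldom coincided. In the last 10% the median distance between them was 24 nt over 25 overlapping pairs in LARP1, 43 nt over 27 pairs in TUB, 33 nt over 23 pairs in TMOD1 and 30 nt over 11 pairs in SMYD3. Over all gene IDs it was 26 nt over 4133 pairs. Stretches within 10 nt of each other made up 5 of the 25 pairs in LARP1, 3 of 27 in TUB, 4 of 23 in TMOD1 and 3 of 11 in SMYD3, against 24.1% in the whole table. TUB, with the most shared loci, thus had the widest spread of marked stretches inside them, and its loci in the last 10% were also the longest, with a median length of 103 nt, against 96 nt in TMOD1, 79 nt in SMYD3 and 66 nt in LARP1.

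Pairs of replicates contributed unequally. In TUB, replicates 1 and 2 had 10 loci in the last 10% in common, which is 10 of the 13 loci of replicate 2 and of the 23 of replicate 1. Replicates 1 and 3 had 7 in common, of 23 and 9 loci, and replicates 2 and 3 had 5. In SMYD3, replicates 1 and 3 had 7 in common, of 34 and 32 loci, while replicates 1 and 2 had 1, of 34 and 9 loci. LARP1 and TMOD1 had between 4 and 6 in common for each pair. So TUB was the gene in which replicate 2 most often used positions also listed in replicate 1.

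Across the 10 bins, shares of reads correlated between replicates with Pearson r of 0.92 to 0.98 in LARP1, 0.98 to 1.00 in TUB, 0.88 to 0.91 in TMOD1 and 0.82 to 0.95 in SMYD3, as a description over 10 shares that sum to the same total and include the high last bin that chose the genes. Over 30 values, the 10 bins in 3 replicates, LARP1 and TUB were the most alike of the 4, with r = 0.93, and TMOD1 and SMYD3 the least, with r = 0.34.

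The same measure was used to find the gene ID most like each gene among 2332 others. For TUB it was a gene ID at chr5:175228367-175311115 on the plus strand, with r = 0.99 and 87.6%, 93.8% and 66.7% of its reads in the last 10%. For LARP1 it was one at chr17:16947374-17097355 on the plus strand, with r = 0.96 and 41.4%, 93.0% and 54.2% in the last 10%. TUB had 98 gene IDs with r above 0.9 and LARP1 had 65. TMOD1 and SMYD3 had 0, with best values of 0.84 at chr19:572612-583405 (plus strand) and 0.82 at chrX:118749624-118826220 (minus strand). All of these values share the same 3 libraries.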

How the data were processed

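Each replicate has 1 deposited peak list without a header. The p-value of a peak is the authors' own, as deposited, and was used to filter peaks. Per the submitters' processing notes the build was hg19 and FastQC, SAMtools, STAR and bedtools were used. Which peak caller and annotation were used is not given in the sources used here. Reads per peak come from the last number of its name in the authors' deposited lists.

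The 4 genes, loci and lists were chosen with earlier results of these data known. Peaks of a gene ID that overlap by at least 1 nt formed clusters inside each replicate, and clusters that overlap between replicates formed loci. Reads were assigned to a bin by peak midpoint. For the whole table, summed reads in the last and first 10% of the span were compared with an exact binomial test in gene IDs with at least 5 loci and at least 10 reads over both ends together, with Benjamini-Hochberg adjustment and a threshold of 0.05. A call also needed all replicates that had reads at the ends to point the same way. The steps ran in Python 3.11.15 with NumPy 2.4.6, pandas 2.3.3 and SciPy 1.17.1. The binomial test was tried on reads simulated as independent, which cannot show how it performs on reads that come in peaks. Merging of peaks and the sharing measure were checked on a small made-up set. Intervals are exact Clopper-Pearson intervals at the 95% level, take reads as independent and cover counting error only.

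The named loci are the 5 with the most reads in the last 10% and any locus there listed in all 3 replicates. The gene ID named beside each gene has the highest Pearson correlation over bins, among those listed in every replicate with at least 100 reads and 5 loci. Of gene IDs adjacent in rank, only the one just after SMYD3 is given. Since 0 gene IDs matched the reference table, the gene families and cell markers on the fixed lists were not analysed here, and no hg19 sequence was used here.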

Additional observations from a re-analysis of the deposited data

Results flagged for a closer look

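Signal outside the listed peaks was flagged in all 4 genes. Within a gene ID the peak names carry running numbers, and not every number has a listed peak. Over the 3 replicates 49.0% of the running numbers of LARP1, 30.3% of TUB, 40.2% of TMOD1 and 52.2% of SMYD3 had none. No source states what these numbers stand for, and the part of unlisted peaks in the results was not tested.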

How the results depend on the processing

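Of 98 alternative values for the main results, 16 moved and 4 reversed. The other 78 include values of position sharing, which were judged by their sign alone and could change greatly. TMOD1 went from 18.8 to 1.80 points with midpoints within 10 nt, and LARP1 from 3.39 to 34.9 points without replicate 1. The 3′ calls of the 4 genes held in 28 of 28, and nothing is read from this because the same contrast picked the genes. The mean share in the last 10% became 42.8% in SMYD3 with the last 20% of the span, 33.6% in TMOD1 with each peak counted once, and in TUB 33.5% from the peaks with the lower p-values (at most the list's median) and 42.5% with each replicate's own span. Leaving out each replicate in turn gave 39.9 to 85.8% in TUB, 45.3 to 63.9% in LARP1, 40.7 to 44.0% in TMOD1 and 17.9 to 26.3% in SMYD3. Gene IDs with a 3′ call and those with a 5′ call numbered 734 and 590 from the peaks with the lower p-values and 218 and 225 with peaks counted once. They numbered 617 to 1171 and 540 to 1051 with a replicate left out, lowest without replicate 1. The difference in position sharing was -0.74 points in TUB from the peaks with the lower p-values. With a replicate left out it ran from 8.54 to 44.4 in TUB, 6.92 to 35.6 in TMOD1, -11.3 to 34.9 in LARP1 and -0.94 to 13.2 in SMYD3, which was -0.42 without replicate 2. The loci that hold 50% of the reads fell to 3 in LARP1 and 3 in TUB from the peaks with the lower p-values, and with a replicate left out numbered 3 to 5 in LARP1, 4 to 7 in TUB, 3 to 6 in TMOD1 and 11 to 16 in SMYD3. Apart from the TUB span, which replicate 3 sets, the cause was not tested. No paired analysis was possible because there is 1 group. A position listed in all replicates is limited by the smallest list, and in LARP1, TUB and TMOD1 replicate 3 had the fewest loci in the last 10%, with 8, 9 and 11.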
